A study of Homo sapiens with 4 samples.

Results

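The receptors and SMAD proteins of the TGF-beta and activin branch were followed in Huh-7, a line grown from a human hepatocellular carcinoma. The gene set was taken as every probe set that the platform annotation assigns to TGFBR1, TGFBR2, TGFBR3, ENG, ACVR1, ACVR1B, ACVR2A, SMAD2, SMAD3 or SMAD4 and to no other gene. All 10 genes were found, with 23 probe sets of the 22215 in the values (10 of 12165 named genes). A further 3 probe sets are listed under SMAD3 together with a second gene and were not used. RNA came from untreated cells (2 arrays) and from cells given TGF-beta and collected 48 h later (2 arrays), read on an Affymetrix human expression array. All dishes held the same line in a medium with 10% heat-inactivated fetal bovine serum, and no vehicle is named for the untreated dishes. No collection time is given for the untreated dishes either, so whether the groups were matched in time is not known. Neither the dose nor the TGF-beta isoform is stated in the sources used here. The arrays carry the numbers 1 and 2 in each group, and no source states that each was its own culture. The p-values therefore rest on the spread among these 4 arrays alone, which may be technical.

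TGF-beta binds the type II receptor TGFBR2, which recruits and phosphorylates the type I receptor TGFBR1 (ALK5). Activins do the same through ACVR2A and ACVR1B (ALK4). Either type I receptor phosphorylates SMAD2 and SMAD3, which join SMAD4, enter the nucleus and bind DNA at target genes. TGFBR3 (betaglycan) and ENG (endoglin) are co-receptors that present ligand, and ACVR1 (ALK2) is a type I receptor that mainly passes BMP signals to other SMADs. Hepatocytes and many liver tumour lines carry this machinery, and receptor and SMAD levels influence how a cell responds to the ligand.

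No probe set of these genes differed past the threshold between the untreated cells and those collected 48 h after TGF-beta. The threshold was an adjusted p under 0.05 in limma, with Benjamini-Hochberg adjustment over the whole array. The count was 0 of 23, beside 0.855% of all probe sets (190 called, 91 or 0.410% higher and 99 or 0.446% lower). The member nearest to the threshold was ACVR1, with an intensity about 1.49 times the untreated level, followed by 1 of the 4 probe sets of SMAD3 at 1.43 times. Both probe sets of TGFBR2 had higher values after TGF-beta, at 1.25 and 1.34 times, and the single probe set of TGFBR1 had a lower value, 0.755 times. At an unadjusted p under 0.05 there were 5 of 23 probe sets, beside 16.3% of all probe sets. Of these, 4 lay higher (8.11% of all probe sets did) and 1 lower (8.15%). Both probe sets of TGFBR2 are among the 4. In bulk RNA, fewer cells that make a transcript and less of it per cell cannot be told apart.

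**Figure D1:**
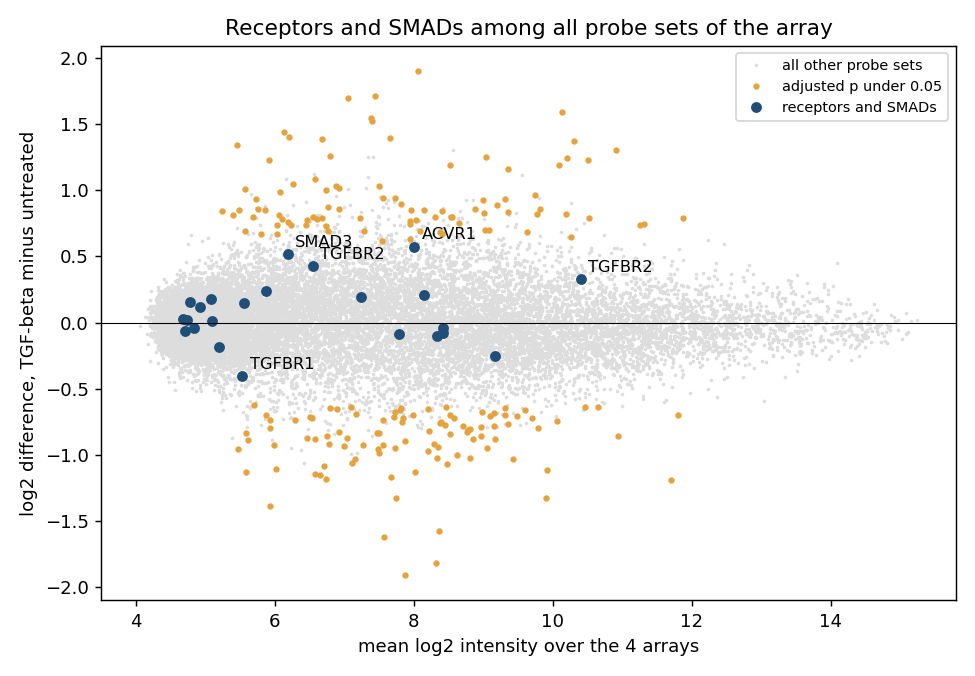
Each point is 1 probe set, with its mean log2 intensity over the 4 arrays on the x axis and its log2 difference, TGF-beta minus untreated, on the y axis. Blue points are the 23 probe sets of the receptors and SMADs, orange points the 190 probe sets with an adjusted p under 0.05, and names mark the 5 blue points with an unadjusted p under 0.05. No blue point is among the called ones.

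The array reads mature transcripts, and the base sequence upstream of a gene's start is shown for the 3 genes with the highest log2 differences, as context for a pathway that acts through SMAD binding to DNA. The windows are the 250 bases before the start that lies furthest upstream for that gene in RefSeq (build GRCh38.p14). Capitals mark CAGAC, the core of the SMAD-binding element, and GGGCGG, the GC box bound by SP1-type factors, each on either strand (GTCTG and CCGCCC in reverse). The ACVR1 window is chr2:157876331-157876580 on the minus strand, that of SMAD3 chr15:67065352-67065601 on the plus strand, and that of TGFBR2 chr3:30606106-30606355 on the plus strand.
ACVR1: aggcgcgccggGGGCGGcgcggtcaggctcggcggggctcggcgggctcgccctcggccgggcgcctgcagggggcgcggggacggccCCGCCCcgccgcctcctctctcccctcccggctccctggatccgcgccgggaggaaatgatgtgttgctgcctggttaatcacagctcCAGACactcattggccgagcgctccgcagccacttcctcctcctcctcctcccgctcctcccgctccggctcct
SMAD3: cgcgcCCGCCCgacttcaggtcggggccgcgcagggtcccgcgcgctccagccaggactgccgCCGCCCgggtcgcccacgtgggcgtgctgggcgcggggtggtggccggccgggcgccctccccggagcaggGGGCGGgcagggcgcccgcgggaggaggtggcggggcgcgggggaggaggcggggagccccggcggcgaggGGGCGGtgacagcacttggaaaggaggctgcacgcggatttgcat
TGFBR2: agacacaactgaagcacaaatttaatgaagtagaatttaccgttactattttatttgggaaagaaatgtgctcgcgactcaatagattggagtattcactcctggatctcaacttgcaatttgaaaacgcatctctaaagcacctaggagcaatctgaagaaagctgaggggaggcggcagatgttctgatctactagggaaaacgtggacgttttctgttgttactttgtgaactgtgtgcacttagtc

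The ACVR1 window holds 1 CAGAC and 2 GC boxes. The SMAD3 window holds 4 GC boxes and 0 matches to CAGAC, and the TGFBR2 window holds 0 of either. Among the first windows of the 10 genes, 1 has CAGAC and 6 have GGGCGG. Over all 35116 windows of this length in RefSeq the shares are 38.0% for CAGAC and 42.6% for GGGCGG. Those windows include every listed start of a gene and not the first alone, so the 2 sets of windows are not alike. These matches are letters in a window, and which start Huh-7 cells use was not measured. RefSeq lists 3 starts for ACVR1, 5 for SMAD3 and 2 for TGFBR2.

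Among the ligand-binding receptors, TGFBR2 was read by 2 probe sets (208944_at and 207334_s_at). The first read 1104 and 1320 without treatment and 1521 and 1506 with TGF-beta. Both treated arrays were above both untreated ones, and the treated pair lay closer together. The log2 difference was 0.33 ± 0.12 (SE, n = 2 per group; 95% interval 0.04 to 0.61), with an adjusted p of 0.247 in limma. It was 0.20 without untreated array 1 and 0.45 without untreated array 2. The second probe set read 76.9 and 84.9, then 103 and 115, again without overlap. Its log2 difference was 0.43 ± 0.12, with an adjusted p of 0.127. The 2 probe sets of TGFBR2 therefore gave the same direction and overlapping intervals, although neither passed. They read 1 gene on the same arrays and are not independent readings.

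TGFBR1, the kinase that TGFBR2 activates, was read by 1 probe set, 206943_at, with a mean below the median of all probe sets. Its intensities without treatment were 45.4 and 62.8, and with TGF-beta 38.9 and 41.7. The groups did not overlap, but the untreated arrays differed from each other by 0.47 on the log2 scale, a gap that only 4.64% of all probe sets reached. The log2 difference was -0.41 ± 0.16 (SE, n = 2 per group), with an adjusted p of 0.276 in limma and a 95% interval from -0.78 to -0.03. Without untreated array 1 it was -0.64, and without untreated array 2 it was -0.17. The size of the TGFBR1 value thus varied with the untreated array used, while its sign did not. Relative to TGFBR1, the bright TGFBR2 probe set shifted by 0.73 on the log2 scale (0.79 and 0.67 on the treated arrays, ±0.11 on the untreated ones). That shift combines values of opposite sign, 0.33 for TGFBR2 and -0.41 for TGFBR1, in a pair not set beforehand. The exact two-sided permutation p of the shift is 0.333, the smallest that 2 arrays against 2 can give, so it cannot weigh the shift.

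**Figure D2:**
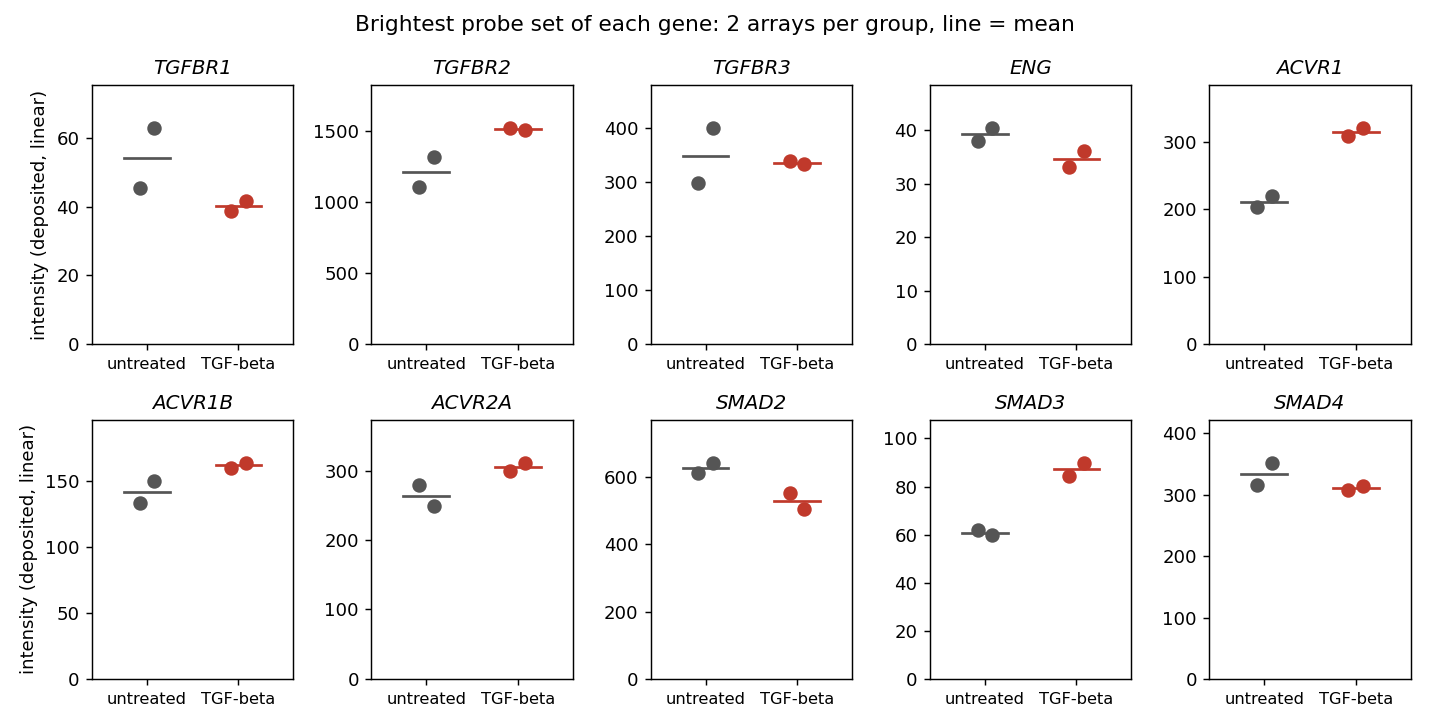
Each panel gives the deposited linear intensity on each array (points) and the group mean (line) for the brightest probe set of 1 gene, with untreated cells in grey and TGF-beta in red, 2 arrays each. The points of ACVR1 lie at 204 and 219 before and 309 and 320 after TGF-beta, whereas the TGFBR3 points of the groups overlap.

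ACVR1, the type I receptor of BMP signals in this set, was read by 203935_at. Its intensities without treatment were 204 and 219, and those with TGF-beta 309 and 320. The gap between the groups was wide beside the gaps within them, which were 0.10 and 0.05 on the log2 scale. The log2 difference was 0.57 ± 0.11 (SE, n = 2 per group; 95% interval 0.33 to 0.82), with an adjusted p of 0.0640 in limma. For scale, the smallest log2 difference among the 190 called probe sets was 0.62 in size. Without untreated array 2 the ACVR1 value was 0.63 and passed (adjusted p = 0.0446), and over the 4 fits that each leave out 1 array the adjusted p ran from 0.0446 to 0.318. The direction was the same in each of these fits.

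ACVR1B, the activin type I receptor, has 6 probe sets. The brightest, 213198_at, read 133 and 150 without treatment and 160 and 164 with TGF-beta, without overlap. Its log2 difference was 0.20 ± 0.11 (SE), with an adjusted p of 0.443, and it was 0.11 without untreated array 1. The other 5 were dim, with means below the median of all probe sets, and gave log2 differences from -0.06 to 0.18. Of the 6 probe sets of ACVR1B, 5 had a positive value (48.2% of all probe sets did). Treated arrays lay above both untreated ones in 4 (22.2% of all probe sets) and below both in 1 (24.9%). Among those 4 was the dim 208222_at, with a log2 difference of 0.03. Those 6 probe sets are 1 gene and not independent readings. ACVR2A, the type II receptor that binds activin, read 280 and 248, then 299 and 311, on 205327_s_at. The treated arrays were both higher, and the log2 difference of 0.21 ± 0.11 (SE) had an adjusted p of 0.411. It was 0.13 without untreated array 2. The 95% intervals of the bright ACVR1B probe set and of ACVR2A reached 0.46 and 0.47, so a rise of that size is not excluded by these arrays.

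Of the co-receptors, TGFBR3 read 298 and 401 without treatment and 340 and 333 with TGF-beta (204731_at). Here the treated values fell between the untreated ones, and the log2 difference was -0.04 ± 0.15 (SE, n = 2 per group; adjusted p = 0.943, limma). The untreated arrays were 0.43 apart on the log2 scale, which 6.20% of all probe sets reached. Without untreated array 2 the TGFBR3 value was 0.18 and without untreated array 1 it was -0.25, so its direction rested on that pair. ENG, best known as a co-receptor of endothelial cells, was dim on both probe sets. On 201809_s_at it read 38.1 and 40.4, then 33.1 and 36.1, and its log2 difference was -0.18 ± 0.11 (SE, adjusted p = 0.472). The other, 201808_s_at, read 25.9 and 27.1, then 27.1 and 26.6, which lies below the lower quartile of all probe sets (an intensity of 29.1) and leaves little room for a decrease to show. Its value of 0.02 ± 0.10 turned to -0.00066 when each array was centred on its median.

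Markers of endothelial cells were at the low end of the array as well. Of their 12 probe sets (9 genes), 10 stayed below an intensity near the median of the table on every array, among them those of CDH5 (vascular cadherin, 19.9 to 22.0) and TIE1 (an endothelial receptor, 23.2 to 24.5). The summed intensity of the list was 439 and 432 without treatment and 409 and 403 with TGF-beta. None of the list was called in limma. By unadjusted p under 0.05, 0 lay higher (8.11% of all probe sets did) and 3 lower (8.15%). The 3 were probe sets of PECAM1 (an endothelial adhesion molecule) and EGFL7, so they cover fewer genes than probe sets. EGFL7 read 87.1 and 83.6, then 72.7 and 66.4, above the table's median. The smallest p was that of PECAM1, at -0.43 ± 0.11 (SE) on the log2 scale with an adjusted p of 0.115. All dishes held the Huh-7 line, and what gave the signal of these marker probe sets or of ENG was not tested.

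Among the receptor-activated SMADs, SMAD3, which binds DNA directly, has 4 probe sets. The brightest, 218284_at, read 61.9 and 59.7 without treatment and 84.6 and 89.8 with TGF-beta, with no overlap and narrow gaps within each group. Its log2 difference was 0.52 ± 0.11 (SE, n = 2 per group; 95% interval 0.27 to 0.77), with an adjusted p of 0.0691 in limma. The next, 205398_s_at, read 56.4 and 52.2, then 69.0 and 59.1, a log2 difference of 0.24 ± 0.12 (adjusted p = 0.394; 0.12 without TGF-beta array 1). The third, 205397_x_at, had overlapping groups and a value of 0.15 ± 0.13, and the dimmest, 205396_at, gave -0.04 ± 0.11. The values of the 4 SMAD3 probe sets thus ran from -0.04 to 0.52, and 1 of the 4 had an interval clear of 0. The mean of the 4 probe sets, a reading chosen after seeing these values, was 0.22, with an adjusted p of 0.267 over all genes.

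SMAD2, the other substrate of the type I receptors, had negative values on each of its 3 probe sets. The brightest, 203076_s_at, read 613 and 642 without treatment and 551 and 504 with TGF-beta, without overlap. Its log2 difference was -0.25 ± 0.11 (SE, 95% interval from -0.50 to 0.003), with an adjusted p of 0.313 in limma. The other two read -0.08 ± 0.11 and -0.09 ± 0.11, with overlapping groups. Relative to this SMAD2 probe set, the brightest SMAD3 probe set (59.7 to 89.8, not far above the array median) shifted by 0.77 on the log2 scale. The shift combines values of opposite sign, 0.52 for SMAD3 and -0.25 for SMAD2, in a pair not set beforehand. Its exact permutation p is 0.333, the smallest possible here, so that p cannot weigh the shift.

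SMAD4, the shared partner of the receptor-activated SMADs, read 316 and 352 without treatment and 308 and 315 with TGF-beta (202527_s_at). The treated arrays were both lower than the untreated ones by a narrow margin, and the log2 difference was -0.10 ± 0.11 (SE, n = 2 per group; adjusted p = 0.729, limma). Its 95% interval ran from -0.36 to 0.16, and the value was -0.18 without untreated array 1 and -0.02 without untreated array 2. The dim second probe set, 202526_at, gave 0.01 ± 0.10, which turned to -0.0087 with median centring.

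**Figure D3:**
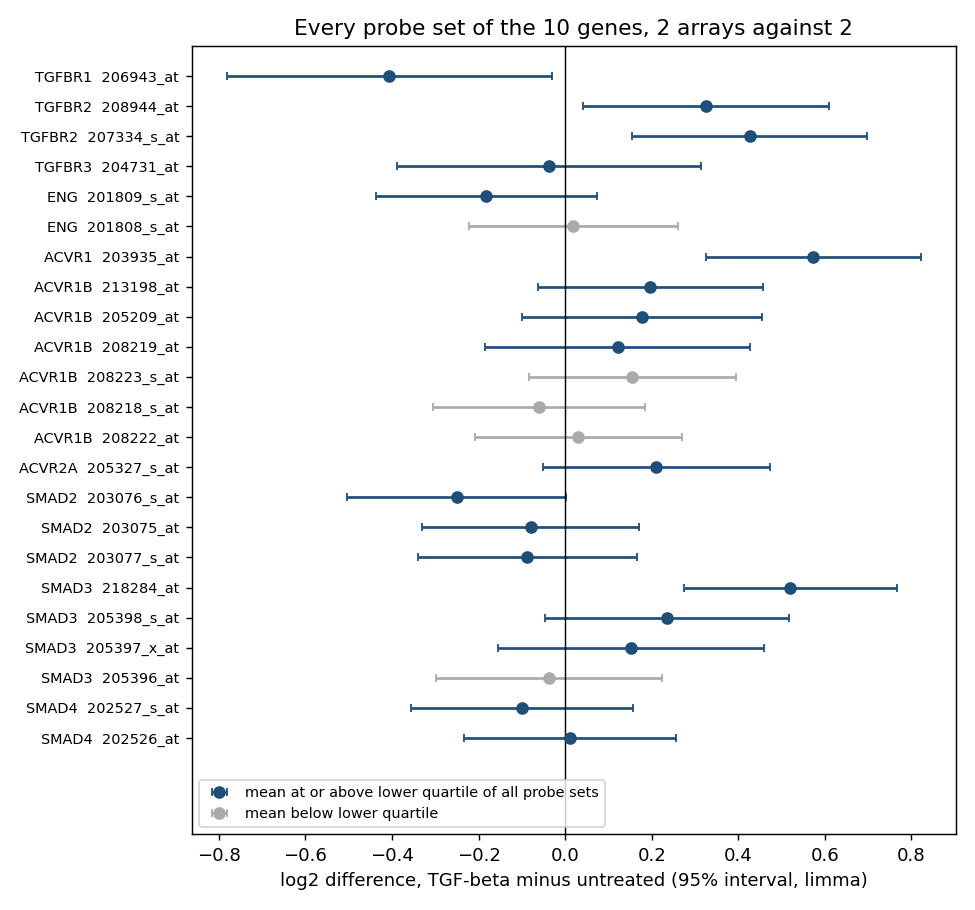
Points are the log2 differences, TGF-beta minus untreated, of all 23 probe sets, and bars are their 95% intervals from limma, with 2 arrays per group. Grey points mark the 5 probe sets with a mean below the lower quartile of the array, and the intervals of ACVR1, both TGFBR2 probe sets, TGFBR1 and the brightest SMAD3 probe set lie to 1 side of 0.

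Over the 23 probe sets the median log2 difference was 0.03, beside -0.01 over all probe sets, and the median size of a difference was 0.16, beside 0.12. Positive values numbered 14 of 23 (48.2% of all probe sets were positive). Treated arrays lay above both untreated ones in 10 of 23 (22.2% of all) and below both in 5 (24.9%), and 4 of the 10 belong to ACVR1B. Standard errors of the 23 differences ran from 0.10 to 0.16. The 5 probe sets below the lower quartile of the array, 3 of ACVR1B and 1 each of ENG and SMAD3, gave values from -0.06 to 0.16.

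Other genes of the pathway were read from lists. The other receptors of the family (6 genes, 7 probe sets) had 0 calls in limma and a median log2 difference of 0.13. An unadjusted p under 0.05 was found for 1 higher and 1 lower probe set (8.11% and 8.15% of all probe sets). ACVRL1 (ALK1), a type I receptor of endothelium, had the smallest p there, at -0.39 ± 0.13 (SE, adjusted p = 0.207) and dim on all arrays. It was -0.23 without untreated array 1. The remaining SMADs (5 genes, 10 probe sets), which serve BMP signals or inhibit the pathway, had a median of 0.03, 0 calls in limma and 0 probe sets with an unadjusted p under 0.05. SMAD9, a BMP-activated SMAD, had the smallest p, at -0.23 ± 0.12 (adjusted p = 0.408), and -0.12 without TGF-beta array 1.

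Ligands, carriers and antagonists (19 genes, 30 probe sets) held 1 call. LEFTY2, an inhibitor of NODAL signalling, rose from 35.6 and 31.7 to 72.7 and 62.9, which is 2.01-fold (adjusted p = 0.0268, limma). The list had a median of 0.04. By unadjusted p (under 0.05) 4 probe sets lay higher (8.11% of all probe sets did) and 2 lower (8.15%). Receptor adaptors and kinase regulators (21 genes, 44 probe sets) had 0 calls in limma and a median of 0.02, and by unadjusted p 2 lay higher and 3 lower. FKBP1A, which binds type I receptors and holds them inactive, read 185 and 145, then 111 and 94.9, on 210187_at. That is -0.67 ± 0.15 (SE) on the log2 scale, with an adjusted p of 0.0816 in limma. With 1 array left out the value of this probe set ran from -0.85 to -0.50. The brightest of its other 4 probe sets gave -0.02 ± 0.11, so the probe sets of FKBP1A differed in size.

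Nuclear partners and repressors of SMADs (18 genes, 47 probe sets) had 0 calls in limma and a median of 0.08, and by unadjusted p 9 lay higher and 2 lower. MECOM (EVI1), a repressor that binds SMAD3, had the smallest p, at -0.51 ± 0.12 (SE, adjusted p = 0.0976, limma). MECOM passed with an intensity trend in limma's prior (0.0350), where 708 probe sets were called, and with a replicate block (0.0465). It did not pass with quantile normalization (0.111), median centring (0.0857), an offset of 16 (0.0862) or without dim probe sets (0.102). With 1 array left out its value ran from -0.63 to -0.39. Early SMAD target genes (23 genes, 42 probe sets) held 1 call and had a median of 0.13, and by unadjusted p 10 lay higher and 2 lower. By that rule 8.11% of all probe sets lay higher and 8.15% lower. The target list was drawn up with genes, such as SKIL and TGIF1, that other lists also hold, so the counts of the lists are not separate. The call among the target genes was THBS1 (thrombospondin 1, which can activate latent TGF-beta). It rose from 49.2 and 57.5 to 113 and 106 on 201109_s_at, 2.06-fold with an adjusted p of 0.0233. Its other 4 probe sets gave log2 differences from 0.17 to 0.97 and none of them passed. The calls of LEFTY2 and THBS1 were lost without TGF-beta array 1 (adjusted p of 0.219 and 0.204, limma) and without TGF-beta array 2 (0.146 and 0.174), where 0 probe sets of the whole array passed. With an offset of 16 before log2, LEFTY2 had an adjusted p of 0.0523.

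The profiles most like ACVR1 over the 4 arrays, by Euclidean distance between centred log2 values, were those of CSPP1 (distance 0.033), RBM4 (0.038) and RRM2 (0.041). The median distance over other probe sets was 0.615. RRM2, a subunit of ribonucleotide reductase, read 1511 and 1597 without treatment and 2295 and 2298 with TGF-beta. For the brightest SMAD3 probe set the nearest were MTAP (0.018), SNHG17 (0.028) and FADS2 (0.037), with a median distance of 0.564 over other probe sets. FADS2, a fatty acid desaturase, read 233 and 221, then 325 and 338. These likenesses cover 4 arrays and mostly reflect a similar step between the groups.

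Over the series as a whole, the median intensity per array ran from 50.1 to 51.0 and the median log2 gap between arrays of a group was 0.13 for untreated cells and 0.12 for TGF-beta. The count of called probe sets was 312 without untreated array 1, 680 without untreated array 2, and 0 without either TGF-beta array (limma). Hepatocyte markers (8 genes, 17 probe sets, 2 of them below the table's median on every array) had a median log2 difference of 0.04. By unadjusted p under 0.05, 5 lay higher (8.11% of all probe sets did) and 2 lower (8.15%). The higher ones were probe sets of APOA1, SERPINA1 and ALB only, and another probe set of ALB was among the lower ones. APOA1, an apolipoprotein, was called at 1.67-fold higher (adjusted p = 0.0454), while TTR (transthyretin) stood at -0.63 (adjusted p = 0.0533). Fibroblast markers (9 genes, 23 probe sets, 17 below the table's median on every array) had a median of -0.10 with 6 of 23 positive, and by unadjusted p 1 lay higher and 2 lower. PDGFRA was called at 1.69-fold higher on 1 of its 2 probe sets (the other gave -0.14), while DCN and COL1A1 had values down to -0.53 and -0.44. The summed list, 7688 to 8207 without and 7986 to 8413 with TGF-beta, was mostly 1 probe set of LUM (6692 to 7292). Leukocyte markers (9 genes, 12 probe sets, 10 below that median) had a median of 0.02, and by unadjusted p 1 lay higher and 1 lower. CD14, which hepatocytes also make, was called at 151 after TGF-beta against a mean of 75.5, while CD3D, a T cell receptor subunit, read 285 and 204, then 154 and 163 (adjusted p = 0.123). The summed list ran from 594 to 673 and from 603 to 634, and probe sets of PTPRC (CD45), a defining leukocyte marker, stayed between 24.8 and 32.6. The calls of APOA1 and PDGFRA were lost under quantile normalization (adjusted p = 0.0522 for each, limma), with an offset of 16 (0.0512 and 0.0528) and without dim probe sets (0.0535 and 0.0543), and that of APOA1 also without untreated array 1 (0.0513). Since all dishes held the Huh-7 line, these are readings of that line. What gave the signal of each fibroblast or leukocyte marker was not tested.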

How the data were processed

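RNA from Huh-7 cells was read on 4 arrays. The authors deposited linear intensities, 1 per probe set and array. The tool named by the submitters' processing notes is affy, and its settings and the genome build are not stated in the sources used here. Quartiles were nearly equal between arrays, so the values were taken as normalized and converted to log2 with no offset. Of 22215 probe sets, 19724 name 1 gene, 568 several and 1923 none, by the platform annotation, with symbols updated through RefSeq where possible (19707). limma 3.58.1 (R 4.3.3; lmFit, eBayes) was fitted to all 22215 probe sets with 7.43 degrees of freedom, 5.43 from the prior, and Benjamini-Hochberg adjustment over all of them; called means an adjusted p under 0.05. All intervals are at 95%. The number of arrays limits the precision. Figures used matplotlib 3.10.9 in Python 3.11.15.

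The members and lists were chosen with earlier results of these data known. All members are named. Each other list (family receptors, SMADs, ligands, adaptors, nuclear partners, targets, and hepatocyte, endothelial, fibroblast and leukocyte markers) gives up to 3 called genes, or the gene of smallest p. For ACVR1 and SMAD3, the 3 nearest profiles are named. The remaining genes were picked with values in view. Arrays of equal number did not deviate together (r = -0.01 over probe sets), so no block was used. The procedure was tested on simulated data. Alternatives were a replicate block, quantile normalization, median centring, an offset of 16, removal of dim probe sets, the brightest probe set per gene, an intensity trend in the prior, leaving out each array and, added after seeing the data, the mean of a gene's probe sets.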

Additional observations from a re-analysis of the deposited data

How the results depend on the processing

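Of 245 values of the member probe sets under the alternatives, 237 kept their sign and 8 turned, all in probe sets whose main log2 difference was at most 0.12 in size. With median centring ENG (201808_s_at) turned to -0.00066 and SMAD4 (202526_at) to -0.0087. With 1 array left out, that ENG probe set ran from -0.013 to 0.051, the SMAD4 one from -0.037 to 0.059, ACVR1B (208219_at) from -0.027 to 0.27, SMAD3 (205396_at) from -0.11 to 0.039 and TGFBR3 from -0.25 to 0.18. Member calls numbered 0 in the main analysis and 0 to 1 with 1 array left out, and those at an unadjusted p under 0.05 fell from 5 to between 2 and 4. With the replicate number as a block 2 members were called, ACVR1 (adjusted p = 0.0223, limma) and SMAD3 (adjusted p = 0.0362), and 977 probe sets in all; the samples share only a number (r = -0.01), so this is no paired result. As a mean per gene over 12165 genes, ACVR1 had an adjusted p of 0.0469 (over its alternatives 0.0223 to 0.318). The members' median log2 difference, 0.03, was 0.14 without dim probe sets, 0.080 with the brightest probe set per gene, and 0.012 to 0.051 with 1 array left out. The count over the whole array, 190, was 96 with quantile normalization, 91 with an offset of 16, 96 without dim probe sets, 708 with an intensity trend and 0 to 680 with 1 array left out. With 2 arrays a group, and 1 in a fit without an array, the lone array is assumed to vary like the others. Intensities near the lower quartile (29.1) leave little room to fall.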
